A study of Mus musculus with 16 samples.

Results

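The genes described here are the endothelin system of the mouse ventricle: the ligand genes Edn1 and Edn3, the converting enzyme gene Ece1 and the receptor genes Ednra and Ednrb. They were taken by symbol from a table of read counts with 54108 gene symbols, and all 5 were found and passed the filter on low counts. The ventricles came from mice aged 8 weeks that were homozygous for a floxed allele of Rbpms, an RNA-binding protein gene (Rbpms fl/fl). The 4 cardiac knockout (cKO) libraries came from such mice that also carried Myh6-Cre, a Cre recombinase under a promoter active in heart muscle cells, and the 4 control libraries from mice without Cre. No group carried Cre without the floxed allele, so an effect of Cre alone and the loss of Rbpms cannot be told apart. Each group held 3 males and 1 female (replicate 3), and since pooling of tissue is not mentioned in the labels, errors below are the spread between these libraries, which may be technical in part. The genes were chosen by pathway and by measured values of this comparison, namely the already known large rise of Edn3, so the differences of the 5 genes between genotypes are given as descriptions, without p-values.

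Endothelins are short peptides cut from long precursors. Proteases of the furin family release an inactive intermediate, which endothelin-converting enzymes such as the product of Ece1 trim to the active peptide. The A receptor (Ednra) binds the Edn1 peptide far more tightly than the Edn3 peptide and couples to contraction of smooth muscle and to growth of cardiomyocytes. The B receptor (Ednrb) binds both alike, triggers nitric oxide release in endothelium and clears the ligand. In the heart Edn1 is known mainly as a product of endothelial cells and stressed cardiomyocytes, whereas Edn3 and Ednrb are best known for guiding neural crest cells that become melanocytes and enteric neurons.

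The sequences that code for the 2 active peptides are shown because the ligands differ there, and differ in their binding to the A receptor. Each is the stretch of 63 bases, coding 21 residues, that a search of the GENCODE M21 coding sequence found by the spacing of the 4 cysteines and the closing tryptophan. Both lie in exon 2 of 5 on the plus strand of GRCm38, Edn1 at chr13:42303649-42303711 and Edn3 at chr2:174761749-174761811. Capitals mark the bases at which the sequences differ, written 5′ to 3′.
Edn1: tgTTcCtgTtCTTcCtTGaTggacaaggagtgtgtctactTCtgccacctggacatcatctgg
Edn3: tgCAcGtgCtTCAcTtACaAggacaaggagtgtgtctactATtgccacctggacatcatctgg
Of the 63 bases 50 were identical (79.4%), and 13 differed, which changed 8 codons and 6 of the 21 residues. All but 2 of the differing bases lay in the first part of the peptide, and the closing stretch was the same in both.

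Across the table, totals ran from 20190334 to 24540433 counts per library, and 3095 of 16051 genes tested (19.3%) passed an adjusted p of 0.05 in edgeR's quasi-likelihood test. Of these, 1548 were higher and 1547 lower in cKO, and 66.1% of the calls were higher when libraries were scaled by their totals alone. Rbpms, the targeted gene, measured 101.6 to 193.2 CPM in controls (read counts relative to library size, here scaled by TMM) and 26.9 to 38.8 CPM in cKO, so no library went against its label. The lowest control value of Rbpms was that of control replicate 4. Cardiomyocyte markers were abundant in all libraries, with a summed level of 32737 to 50266 CPM over 10 genes.

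Of the 5 endothelin genes, 1 was called higher, Edn3, and 0 were called lower, beside 19.3% of all genes called in either direction. Nothing is read from that share, since the genes were chosen with this comparison in view. The CPM values of the genotypes did not overlap for 2 of the 5, Edn1 and Edn3, beside 23.5% of all genes. The median log2 fold change of the 5 genes was 0.26, and that of all genes tested was 0.0053.

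**Figure D1:**
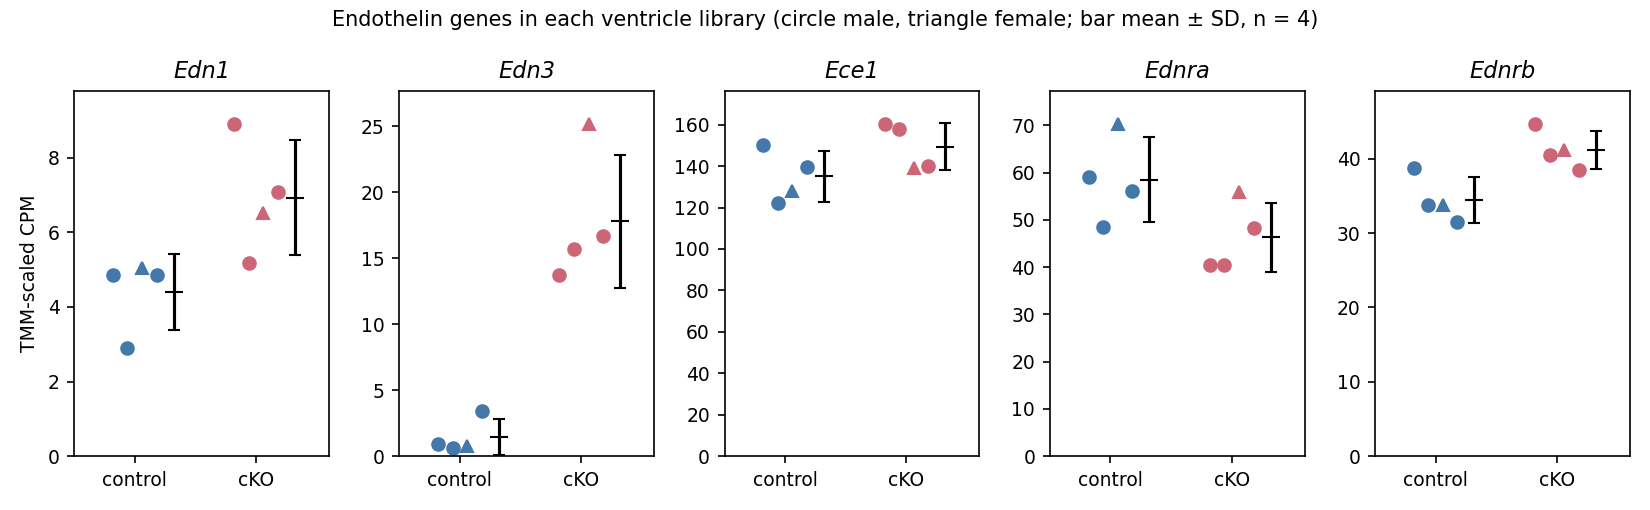
TMM-scaled CPM (vertical axes, from 0) of each endothelin gene in the 4 control and 4 cKO libraries, with the mean ± SD beside the points and the female libraries as triangles. The cKO libraries of Edn3 sit between 13.7 and 25.2 CPM, all above the controls at 0.59 to 3.45 CPM, and the groups lie closest for Ece1.

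Edn3 (chromosome 2, 174760619 to 174784042, plus strand), the ligand gene of the neural crest pathway, was scarcely counted in control ventricle and had at least 332 counts in every cKO library. Controls 1 to 4 had 21, 12, 19 and 66 counts, or 0.95, 0.59, 0.80 and 3.45 CPM. The cKO libraries 1 to 4 had 332, 357, 636 and 388 counts, or 13.7, 15.7, 25.2 and 16.7 CPM. Control replicate 4 was the high control and the female cKO library the highest of all, and the lowest cKO value lay well above the highest control. Control replicate 4 was also the control with the least Rbpms, and the part of this in its Edn3 level was not tested. The means were 1.45 ± 1.34 CPM (SD, n = 4) in controls and 17.8 ± 5.05 in cKO. Its log2 fold change of 3.65 ± 0.43 SE is a 12.6-fold rise and ranked 10 among the 16051 genes tested, counted from the largest rise. Without control replicate 4 the rise was 22.6-fold (log2 fold change 4.50). In males alone it was 9.37-fold. With only 118 counts over all controls, the control level is the less precise side of this ratio.

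Edn1 (chromosome 13, 42301476 to 42307990, plus strand), the principal endothelin of vessels and heart, was low in both genotypes. Control replicates 1 to 4 measured 4.85, 2.89, 5.05 and 4.86 CPM. The cKO replicates measured 8.90, 5.19, 6.53 and 7.09 CPM. The groups touched but did not cross, since the lowest cKO value, replicate 2, was just above the highest control, replicate 3. Control replicate 2 lay far below the other controls. The means were 4.41 ± 1.02 and 6.93 ± 1.54 CPM (SD, n = 4), a log2 fold change of 0.65 ± 0.21 SE that did not put Edn1 among the called genes. It was called in 6 of the 17 alternative settings, among them without cKO replicate 2, where the log2 fold change was 0.76. A noncoding gene on the other strand, Gm47118, shares exon bases with Edn1 and had 2 counts over all controls and 3 over all cKO libraries.

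Ece1 (chromosome 4, 137862237 to 137965229, plus strand), the converting enzyme gene, was the most abundant of the 5. Controls 1 to 4 measured 150.4, 122.4, 127.9 and 139.5 CPM, and cKO replicates measured 160.2, 158.1, 139.3 and 140.03 CPM. The ranges overlapped, with control replicate 1 above cKO replicates 3 and 4. The log2 fold change was 0.15 ± 0.09 SE, from 135.04 ± 12.5 to 149.4 ± 11.3 CPM, and it was not called in any of the 17 alternative settings, which gave 0.10 to 0.23. Its coefficient of variation was 9.23% in controls and 7.55% in cKO, against 92.8% and 28.3% for Edn3.

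Ednra (chromosome 8, 77663031 to 77724464, minus strand), the receptor that prefers the Edn1 peptide, was lower in cKO on average. Control replicates measured 59.1, 48.6, 70.3 and 56.1 CPM. The cKO replicates measured 40.5, 40.4, 55.8 and 48.4 CPM. In each genotype the female library was the highest, and the female cKO value overlapped the male controls, while the male libraries alone were separate by a narrow margin. The log2 fold change was -0.34 ± 0.13 SE (58.5 ± 8.997 to 46.3 ± 7.38 CPM) and was not called. Ednra was called lower in 4 of the 17 alternative settings. They included no filter on low counts (log2 fold change -0.35) and sex as a covariate (-0.34). The others left out control replicate 2 (-0.42) or cKO replicate 3, the female library (-0.44). With 1 female per genotype, whether the sexes differ in Ednra was not tested. The gene 4933431K23Rik, on the other strand, shares exon bases with Ednra and had 118, 93, 208 and 54 counts in controls and 55, 46, 87 and 32 in cKO, with a log2 fold change of -1.24 ± 0.35 SE (edgeR adjusted p = 0.0265). The strand setting of the counting is not given in the sources used here, so reads of these 2 genes cannot be told apart.

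Ednrb (chromosome 14, 103814625 to 103844402, minus strand), the receptor that accepts both ligands, was slightly higher in cKO on average. Controls measured 38.8, 33.8, 33.8 and 31.5 CPM and cKO replicates 44.6, 40.4, 41.2 and 38.5 CPM. The overlap came from control replicate 1, which lay just above cKO replicate 4. Ednrb had the smallest coefficient of variation of the 5 genes, 8.96% in controls and 6.20% in cKO. The log2 fold change was 0.26 ± 0.09 SE (34.5 ± 3.09 to 41.2 ± 2.55 CPM) and was not called. Ednrb was called in 4 of the 17 alternative settings, among them without control replicate 1, at 0.32.

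**Figure D2:**
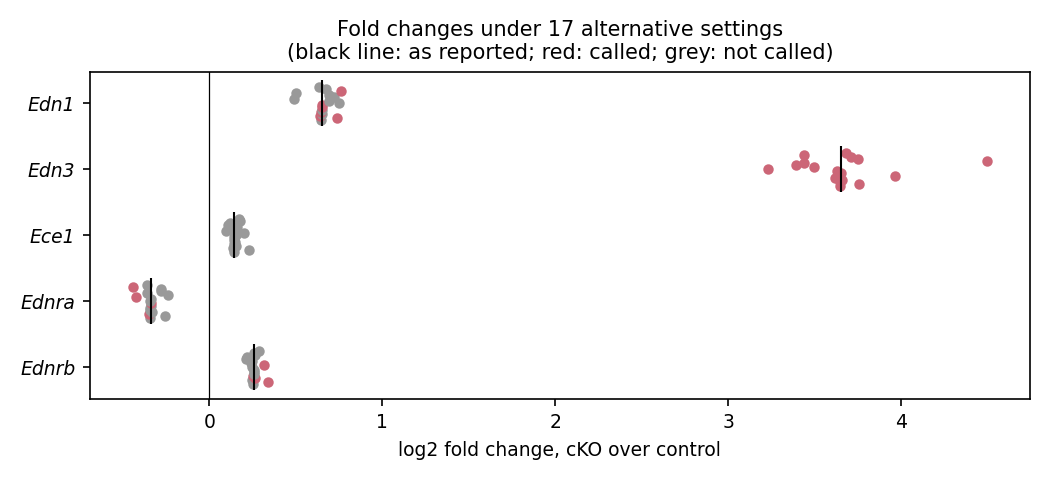
Log2 fold change of cKO over control (horizontal axis) of each endothelin gene under the 17 alternative settings (points, red where called) and as reported (black line). Edn3 is red throughout at 3.23 to 4.50, Ece1 is grey throughout, and the other 3 genes lie near the threshold.

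Levels of different genes were compared as CPM per kilobase of annotated exon. In controls the order was Ece1 at 25.5 ± 2.35, Ednra at 10.7 ± 1.64, Ednrb at 8.08 ± 0.72, Edn1 at 2.06 ± 0.48 and Edn3 at 0.35 ± 0.33 (mean ± SD, n = 4). In cKO it was Ece1 at 28.2 ± 2.13, Ednrb at 9.66 ± 0.60, Ednra at 8.45 ± 1.348, Edn3 at 4.33 ± 1.23 and Edn1 at 3.24 ± 0.72. The receptors in either genotype, and the ligands in cKO, were neighbours whose ranges overlapped. Among 15891 genes with a length, Edn3 moved from percentile 12.1 of the per-kilobase levels in controls to 54.7 in cKO. Edn1 moved from 38.6 to 47.7, Ednra stood at 76.3 and 71.3, Ednrb at 69.95 and 74.5, and Ece1 at 90.2 and 91.5.

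On that scale the ligand genes changed places. Edn3 made up 9.26%, 9.57%, 7.61% and 26.96% of the summed Edn1 and Edn3 level in controls 1 to 4, and 44.5%, 61.1%, 66.7% and 55.01% in cKO replicates 1 to 4. Edn1 remained the larger part in all 4 controls and in cKO replicate 1, and Edn3 was the larger part in the other 3 cKO libraries. The summed ligand level was 2.41 ± 0.67 CPM per kilobase in controls and 7.57 ± 1.21 in cKO, and its ranges, 1.49 to 3.11 and 6.24 to 9.17, did not overlap.

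For the receptors the sums overlapped and the shares did not. The summed Ednra and Ednrb level was 16.8 to 20.8 CPM per kilobase in controls and 16.9 to 19.9 in cKO. Ednra made up 52.8% to 61.8% of it in controls and 41.4% to 51.4% in cKO, without overlap. With the longest transcript as the length, Ednra made up 61.96% to 70.2% and 50.7% to 60.6%, so it was the larger part in all 8 libraries and the order of the receptors in cKO turned. The same lengths put Edn3 at 51.4% to 72.6% of the ligand level in cKO. By them Edn3 was the larger part in cKO replicate 1 too, where the exon union had put Edn1 first. These shares come from the comparison that was known when the genes were chosen and carry no test.

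**Figure D3:**
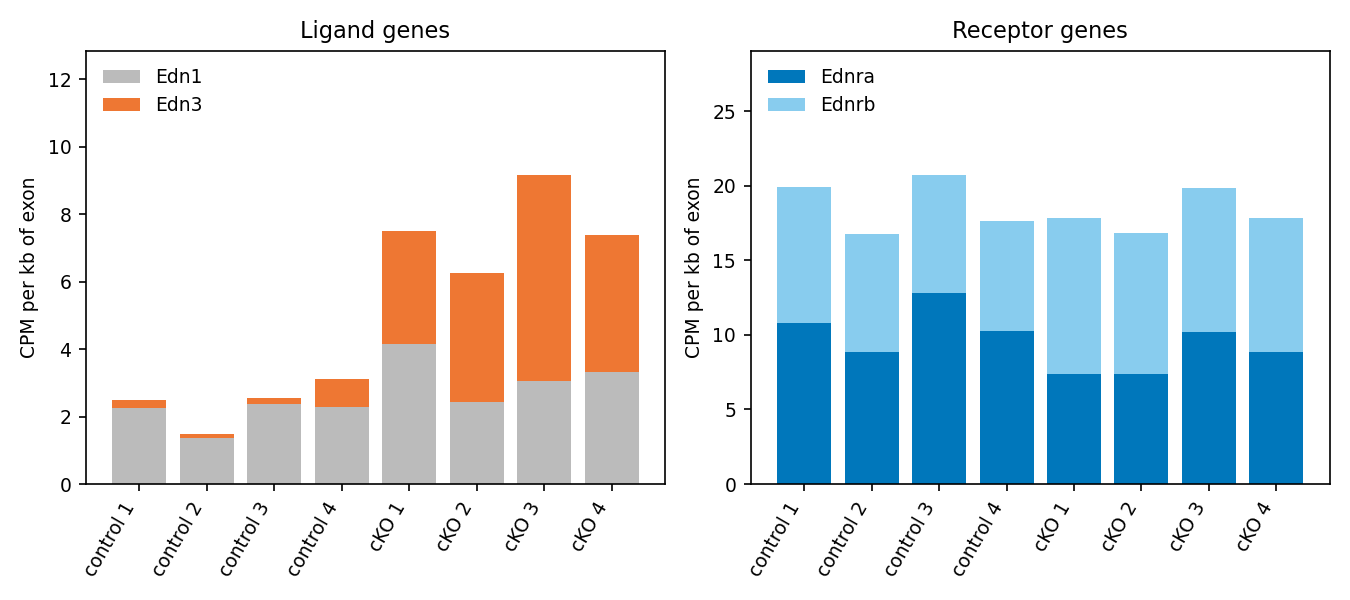
Stacked CPM per kilobase of exon (vertical axes, from 0) of the ligand genes Edn1 and Edn3 (left) and the receptor genes Ednra and Ednrb (right) in each control and cKO library. The summed ligand level lies between 1.49 and 3.11 in controls and between 6.24 and 9.17 in cKO, while the receptor sums overlap.

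The remaining endothelin genes were close to silent. Edn2, the third ligand gene, had 2 counts over all controls and 1 over all cKO libraries. Ece2, a second converting enzyme, had 13 and 47 counts, and Ecel1, a related protease, had 4 and 7. None of the 3 passed the filter on low counts.

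The wider pathway was described from 7 lists of 78 different genes, of which 72 were tested. Of these, 13 rose (18.1%) and 8 fell (11.1%), beside 9.64% of all genes tested in each direction, and the median log2 fold change was 0.05. Of the 13 that rose, 7 belong to the list of endothelin-responsive cardiomyocyte genes, some of whose rises were known beforehand. Among the other 63 tested genes 6 rose (9.52%), a share near that of all genes, and 8 fell (12.7%). Each list below is short, and its counts stand beside the same 9.64% in each direction. The adjusted p-values that follow are from edgeR's quasi-likelihood test over all 16051 genes.

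Genes that endothelin is known to raise in cultured cardiomyocytes were mostly called higher in cKO. Of 9 tested, 7 rose and 0 fell, with a median log2 fold change of 1.12. These genes answer many other stimuli too, and the rises of Nppa, Nppb, Myh7 and Acta1 were known when the list was written. Nppa, atrial natriuretic peptide, had a log2 fold change of 2.84 ± 0.27 SE (adjusted p = 5.93e-05), and Nppb, its B-type relative, one of 2.66 ± 0.31 (adjusted p = 1.88e-04). Myh7, slow myosin heavy chain, followed with 2.33 ± 0.41 (adjusted p = 0.00225). The growth regulator gene Myc rose 2.17-fold, from 3.06 ± 0.34 to 6.65 ± 1.46 CPM (adjusted p = 0.0015). The 2 that did not pass were Fos, an immediate early gene, at -0.62 and Myl2, the ventricular myosin light chain, at -0.15.

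None of the listed genes that carry the signal inside the cell was called higher. Of 26 G protein and effector genes tested, 0 rose and 4 fell (15.4%), beside 9.64% of all genes in each direction. The median log2 fold change was 0.00046. Gnaq and Gna11, the G proteins through which both receptors reach phospholipase C, stood at -0.02 and -0.09 and did not pass. Gna12, another G protein alpha subunit, fell from 134.4 ± 11.5 to 95.1 ± 6.80 CPM (log2 fold change -0.50, adjusted p = 0.00177). Prkce, protein kinase C epsilon, fell from 79.6 ± 2.55 to 59.5 ± 2.05 CPM (-0.42, adjusted p = 0.00112), and its 4 cKO values of 57.9 to 62.4 CPM lay below its controls at 77.05 to 82.9. Prkd1, protein kinase D, fell by 0.69 on the log2 scale (adjusted p = 0.0206). Prkd1 missed the threshold without control replicate 3 (0.0506), without cKO replicate 2, 3 or 4 (0.0537, 0.0529 and 0.0563) and in males alone (0.101).

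Genes that end receptor signalling did not share a direction: 2 of the 9 tested rose and 1 fell, with a median log2 fold change of 0.01. Grk5, a kinase that desensitises receptors, rose 2.12-fold, from 58.1 ± 13.8 to 122.9 ± 35.1 CPM (adjusted p = 0.00314). Arrb1, beta-arrestin, rose 1.30-fold (adjusted p = 0.0181, and 0.0533 without cKO replicate 1). Rgs2, which switches off the Gq protein, fell from 87.03 ± 7.23 to 59.99 ± 8.01 CPM (log2 fold change -0.54, adjusted p = 0.00339). Rgs5, a pericyte gene of the same family, stood at 0.01 and did not pass.

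Proteases that process or clear endothelins were measured through 6 tested genes, of which 1 rose and 1 fell, with a median of 0.12. Furin, the protease that opens the precursors, fell from 112.8 ± 10.7 to 85.6 ± 4.56 CPM (log2 fold change -0.40, adjusted p = 0.00627). Pcsk5, another member of its family, rose from a lower level, 5.40 ± 0.90 to 9.65 ± 0.91 CPM (0.84, adjusted p = 0.00254). Mme, neprilysin, which degrades the peptides, stood at -0.67 and did not pass (adjusted p = 0.131).

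Among 8 regulators of Edn1 transcription 1 rose and 1 fell, with a median of -0.03. Klf2, a flow-responsive factor of endothelium that represses Edn1, fell by 0.38 on the log2 scale (adjusted p = 0.0171), and missed the threshold without cKO replicate 2 (0.0518) and in males alone (0.0633). Jun, part of the AP-1 factor, rose by 0.31 (adjusted p = 0.026). Jun missed the threshold in males alone (0.0641), without control replicate 2 or 4 (0.0746 and 0.0625) and without cKO replicate 1, 2 or 3 (0.059, 0.0502 and 0.0755).

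Vasodilator genes that act against endothelin included 2 that rose and 0 that fell among 8 tested, with a median of 0.23. Ptgis, prostacyclin synthase, rose 1.80-fold, from 15.1 ± 3.60 to 27.2 ± 2.45 CPM (adjusted p = 0.00305), and Adm, adrenomedullin, 1.47-fold (adjusted p = 0.0185). Adm missed the threshold without control replicate 2 (0.0546), without cKO replicate 1 or 2 (0.051 and 0.0584) and in males alone (0.0719). Nos3, the nitric oxide synthase that acts downstream of the B receptor in endothelium, stood at -0.09 and did not pass.

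The neural crest partners of Edn3 and Ednrb did not move together. Of 7 tested 1 rose, the transcription factor gene Zeb2 (0.29, adjusted p = 0.027), and 1 fell, the melanocyte regulator Mitf (-0.32, adjusted p = 0.0255). Zeb2 missed the threshold without control replicate 1 or 4 (0.067 and 0.0579), without cKO replicate 1 or 3 (0.0949 and 0.0673) and in males alone (0.0649). Mitf missed it without control replicate 2 or 3 (0.0635 and 0.0559), without cKO replicate 1, 3 or 4 (0.0609, 0.0684 and 0.0613), in males alone (0.121) and with total counts only (0.102). Sox10, the crest factor upstream of Ednrb, stood at 0.64 and did not pass.

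**Figure D4:**
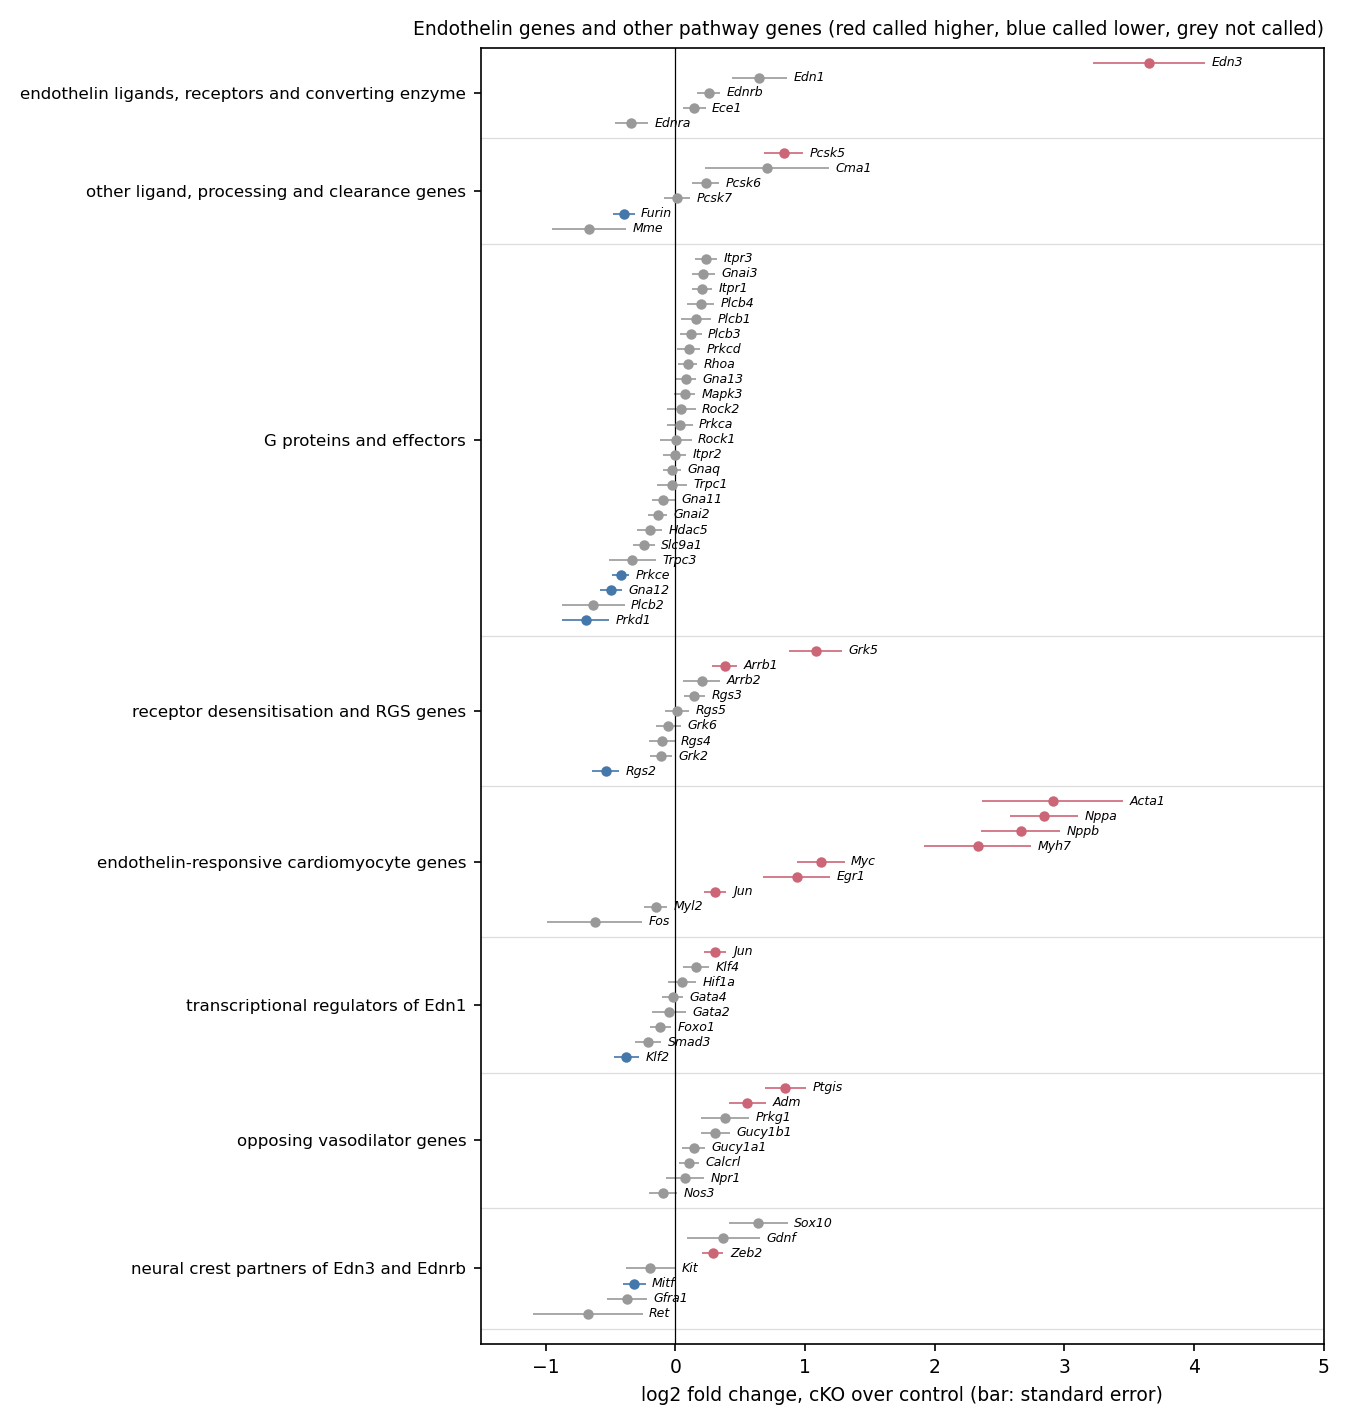
Log2 fold change of cKO over control (horizontal axis, with standard errors) for the endothelin genes and the tested genes of the 7 pathway lists, 1 gene left out, with called genes in red (higher) or blue (lower). Edn3 at 3.65 lies beyond all other genes drawn, and the G protein and effector genes cluster around 0.

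Whole ventricle mixes cell types, and in such samples fewer cells of a type and less RNA per cell cannot be told apart. Levels of marker genes were therefore summed for 12 cell types, and no listed marker was at 0 in all libraries. The 10 endothelial markers, from the cell type best known for Edn1 and Ednrb, summed to 1268 to 1647 CPM in controls and 1219 to 1474 in cKO, and 0 of the 10 were called. The 5 endocardial markers were higher, 204.8 to 221.1 against 272.4 to 318.7 CPM, with 4 of 5 called higher. The 10 fibroblast markers, all called higher, summed to 2637 to 3557 CPM in controls and 5563 to 6562 in cKO. The 10 smooth muscle and pericyte markers, from cells known for Ednra, overlapped at 502.4 to 700.2 and 437.9 to 672.96 CPM, with 1 called higher and 2 lower.

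Markers of cell types tied to Edn3 and Ednrb elsewhere in the body were also summed. The 8 Schwann cell markers summed to 85.7 to 106.98 CPM in controls and 119.3 to 142.6 in cKO, with 3 called higher. The 6 melanocyte markers summed to 1.41 to 5.47 and 5.27 to 15.3 CPM. Of these 2 were tested, and neither was called, among them Dct at a log2 fold change of 1.55. The 6 atrial markers overlapped, at 79.5 to 269.6 and 142.5 to 351.6 CPM, with 2 of 5 tested called higher. Those called were Dkk3 and Nr2f2, at log2 fold changes of 1.42 and 0.30. Myl4, Sln and Myl7, at 0.93, 0.61 and 0.06, were not called. Bmp10, also on the atrial list, was not tested. It had 72 of its 74 control counts in control replicate 1, and 14 counts over all cKO libraries. The 10 macrophage markers summed to 211.6 to 322.7 and 339.8 to 390.2 CPM, with 3 called higher. The 10 cardiomyocyte markers summed to 38598 to 50266 and 32737 to 38991 CPM, with 3 called lower.

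In exact two-sided permutation tests of these sums the endocardial, fibroblast, Schwann and macrophage lists reached p = 0.0286, the smallest value 4 against 4 libraries allow, which adjustment over the 12 lists raised to 0.0858 (adjusted p). With 4 libraries a group, at least 7 lists would have to reach the smallest p for any to pass after adjustment, so no list could pass on its own and the adjusted values do not show that the sums were alike. Conduction system markers (exact p = 0.714), mesothelial markers (exact p = 1) and lymphatic markers (exact p = 0.0857) overlapped between genotypes. Of the 7 conduction markers 2 were called higher and 2 lower, and of the 6 lymphatic markers 1 higher and 1 lower. The lower lymphatic marker, Prox1, averaged 199.4 CPM of a mean lymphatic sum of 295 CPM in controls, and 142.8 of 265.3 CPM in cKO. The median log2 fold change of the lymphatic markers was 0.41, against the direction of their sum. Of the 8 mesothelial markers 0 were called. A sum can hide such opposed changes. The part of the 12 cell types in the endothelin values was not tested.

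The genes whose log2 CPM followed Edn3 most closely over the 8 libraries, among 14034 genes with a mean of at least 1 CPM, were Nppa (Pearson r = 0.995), Ndrg3, Olfml3, Plp2 and Cmklr1 (0.989 to 0.992). All 5 were called higher in cKO, and the genotypes form 2 separate sets of points, so this ranking largely restates the difference between them. After subtraction of each genotype's mean the closest genes included Ctsa (0.988), Nppa (0.982), Slc5a6 and Dapk3. Nppa was the gene on both lists. It measured 55.3, 42.2, 42.1 and 103.8 CPM in controls 1 to 4, and 392.8, 410.6, 539.6 and 401.1 CPM in cKO. The control with the most Edn3, replicate 4, had the most Nppa, and so did the cKO library with the most Edn3, replicate 3. Both libraries stood apart from the rest of their group in both genes. The r values named are the highest among 14034 genes over only 8 libraries, and a link between Edn3 and Nppa within genotypes was not tested. Among the 14034 genes, 93 reached r = 0.9 with Edn3 after the subtraction.

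**Figure D5:**
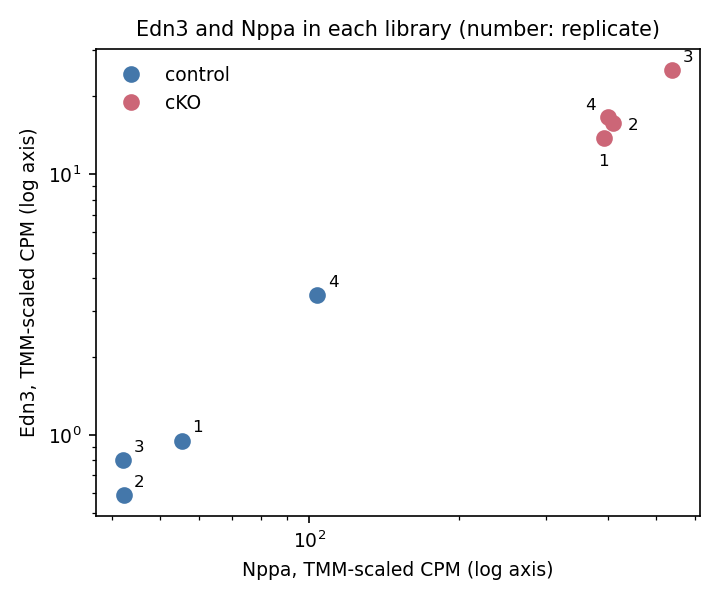
Edn3 against Nppa in TMM-scaled CPM (both axes logarithmic) for each library, numbered by replicate and coloured by genotype. Control replicate 4 (103.8 CPM Nppa, 3.45 CPM Edn3) lies apart from the other controls, and the female cKO replicate 3 (539.6 and 25.2) is highest on both axes.

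The other endothelin genes had other neighbours. By the same measure over 8 libraries Edn1 was closest to Capn10, 4931428F04Rik, Rtn1, Kcnma1 and Trmt12 (0.93 to 0.96). Ednra was closest to St3gal4, Spc24, Prmt3, Tspyl5 and Snx16 (0.96 to 0.99), and of these St3gal4 and Spc24 were also among its closest 5 with genotype means subtracted. Ednrb was closest to Stox2, Cfp, Arhgap19, Notch2 and Ms4a4a (0.966 to 0.978). Ece1 was closest to Ctdsp2, Ppp1r16a, Exo5, Slco2b1 and Shank1 (0.93 to 0.94). With genotype means subtracted, the 5 closest to Ece1 were Plekhm1, Setd1b, Astn1, Ncoa3 and Furin (0.97 to 0.99). By that measure 55 genes reached 0.9 with Ece1. Between the 5 endothelin genes themselves, values with genotype means subtracted ran from -0.45 (Edn3 and Ednrb) to 0.57 (Ednrb and Ece1). No pair of the 5 reached 0.9. Over all libraries 13 to 456 of the 14034 genes did so with each of them. That is a small share, so nothing is read from its absence among these few pairs.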

How the data were processed

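The deposited table holds raw counts per gene symbol for 8 libraries of stranded polyadenylated RNA, which the authors made before deposit, 1 column per library. Per the submitters' processing notes, the tools included HISAT2 (2.0.4) and featureCounts (1.6.0), FastQC (0.11.4) and edgeR (3.30.3) are also listed, and GRCm38 and mm10 appear as builds. Libraries of newborn mice were not used here. The 24 rows that carry a number in place of a symbol (0.115% to 0.132% of counts) were left out.

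Counts were tested with edgeR 4.0.16 in R 4.3.3 (quasi-likelihood, TMM, filterByExpr, genotype as the only term, Benjamini-Hochberg over 16051 genes, two-sided), after a check on simulated data. Each standard error is the log2 fold change over the root of the F statistic. CPM per kilobase uses the exon union of GENCODE M21. Alternatives were other scalings, filters and tools (DESeq2 1.42.0, limma 3.58.1), sex as a covariate, males only and each library left out.

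Members and lists were chosen with earlier results of these data known. Named genes were the 5 members, up to 4 called genes per list with the smallest adjusted p, genes called against most of their list, and the 5 nearest genes by Pearson r of log2 CPM (prior count 2). Fos, Myl2, Gnaq, Gna11, Rgs5, Mme, Nos3, Sox10 and the named markers were added after their values were seen. Some genes that the rule took are not reported here. Replicate numbers only name libraries and pair none of them.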

Additional observations from a re-analysis of the deposited data

Results flagged for a closer look

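Edn3 in control replicate 4 was far from the other controls, at 3.45 CPM against 0.59 to 0.95, a gap of 0.873 of the group's range. Edn1 in control replicate 2 was far below the others, at 2.89 CPM against 4.85 to 5.05, a gap of 0.906 of the range. The limit for 4 samples is 0.829, and chance alone passes it in about 1 in 20 groups. Of 36 groups checked, over the 5 genes, Rbpms and the 12 marker sums, these 2 passed it.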

How the results depend on the processing

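Edn3 was called higher in all 17 alternative settings, with log2 fold changes of 3.23 to 4.50. Every setting reuses libraries in which this rise was known when the genes were chosen. The calls of the 5 genes therefore describe the processing and add no support for the differences. The other 4 endothelin genes kept their direction in all 17, and Edn1, Ednra and Ednrb lay near the threshold. The number of the 5 genes called higher, 1 as reported, was 3 with total counts only and with DESeq2 (Edn1, Edn3 and Ednrb). It was 2 with no filter on low counts, robust dispersions or sex as a covariate (Edn1 and Edn3), 2 with the stricter filter (Edn3 and Ednrb), and 1 to 2 with 1 library left out. The number called lower, 0 as reported, was 1 with no filter or with sex as a covariate (Ednra), and 0 to 1 with 1 library left out. With total counts only, 1021 of all genes were lower, and the median log2 fold change of all genes was 0.088 (0.0053 as reported). The cause of these shifts was not tested. Of 19 pathway genes that the naming rule took, 11 were called under every alternative, 8 missed the threshold under at least 1, and 0 turned direction. The difference in summed markers between cKO and control turned sign with total counts only for endothelial (15.9 CPM, -65.3 as reported) and smooth muscle and pericyte markers (12.1, from -22.9), and with DESeq2 size factors for mesothelial markers (-0.037, from 0.043). With 1 library left out, 4 differences changed sign: endothelial (-125.2 to 1.59 CPM), smooth muscle and pericyte (-57.1 to 24.4), mesothelial (-6.89 to 4.46) and conduction system (-1.96 to 12.1, from 4.29). All 4 had overlapping groups. After adjustment none of the 12 marker lists could have passed on its own. Edn1 and Edn3 had 379 and 118 counts over all controls, so counting error weighs most on them.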
